A study of Mus musculus with 36 samples.

Results

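Cultures of BV-2, a line of immortalised microglia from the mouse, were compared after 24 h and after 4 h with the vehicle dimethyl sulfoxide (DMSO) and no lipopolysaccharide (LPS). All 6 libraries of these groups were used, 3 at 24 h and 3 at 4 h, of 36 in the series. They carry the replicate numbers 4, 5 and 6 at each time and were chosen by their labels alone. In the series, LPS was combined with dimethyl fumarate, monomethyl fumarate or cannabidiol, and DMSO and ethanol (EtOH) were the drug vehicles. The vehicle was at 0.2%, and the genotype was wild type in every group. The EtOH groups (0.2%, replicates 4 to 6) and the groups with LPS and no drug (600 ng/mL, replicates 1 to 3) at the same times served here for comparison. The labels do not say which vehicle the groups with LPS and no drug received. Cells were grown in medium with 10% serum, which the protocol lowered to 0.1% just before treatment in the experiments with LPS. The protocol does not say apart whether wells without LPS had the same change. There were no untreated cells and no libraries taken at the start, so hours in culture, the change of serum and exposure to DMSO cannot be told apart.

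Cells that leave the cycle lower the genes of DNA replication and mitosis, which are controlled by E2F factors and by a repressor complex that acts at CHR and CCAAT elements. Loss of growth factor signalling frees FoxO factors to switch on genes of cell cycle exit, while nutrient shortage and endoplasmic reticulum stress act through ATF4, and low oxygen acts through hypoxia-inducible factor. Microglia are the resident macrophages of the brain, and BV-2 cells respond to LPS with cytokines, chemokines and nitric oxide.

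Depth ran from 14.1 M to 16.4 M counted reads over the 6 libraries, and 14691 to 14946 genes had at least 1 read in a library. The top 10 genes by reads made up 5.23 to 5.61% at 4 h and 6.13 to 6.59% at 24 h, and mitochondrial transcripts 1.99 to 2.27%. Principal component analysis of the 1000 genes of highest variance parted the times along its leading axis (76.1% of variance), with scores of -29.4, -13.6 and -21.5 for 4 h replicates 4, 5 and 6 and of 18.2, 24.5 and 21.8 for the 24 h replicates. Replicate 5 at 4 h thus lay nearest to the 24 h libraries. The line was checked with 10 markers of macrophages, microglia included, all of which were measured. Their summed normalized counts were 32628 to 36699 at 4 h and 30150.0 to 37078 at 24 h. Of 10 markers of resting microglia, 4 stayed below 10 normalized counts or were not listed, among them Siglech, Gpr34 and Sall1. The 9 listed summed to only 723 to 846 at 4 h and 628 to 910 at 24 h. Markers of astrocytes, fibroblasts and lymphocytes summed to at most 20.7, 6.44 and 9.88. Of the neuronal markers only Map2 was above the filter, and of the oligodendrocyte markers only 2. Neuronal markers summed to 138 to 176 at 4 h and 109 to 125 at 24 h. Oligodendrocyte markers summed to 1195 to 1263 at 4 h and 1128 to 1355 at 24 h, mostly from Mbp (means of 1195 and 1213).

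Values are normalized counts, the authors' read counts divided by size factors. Differences are log2 of 24 h over 4 h after adding 1, with the standard error (SE) and the Benjamini-Hochberg adjusted p of limma over all genes tested, and a gene was called, as higher (upregulated) or lower (downregulated), at an adjusted p below 0.05. Of 17232 genes listed, 11482 reached 10 normalized counts in at least 3 libraries and were tested. At 24 h 2956 genes (25.7%) were higher and 2966 (25.8%) were lower, so that 51.6% of all genes tested were called. Most of these differences were small. The median absolute log2 difference of called genes was 0.49, and 3087 of them (52.1%) lay within 0.5 of 0. Beyond a log2 difference of 1, 611 genes (5.32%) were higher and only 99 (0.862%) were lower. In 6977 genes (60.8%) the libraries of the 2 times did not overlap, with all 24 h libraries above all 4 h libraries in 29.7% and below them in 31.1%. Because so many genes were called, each gene group below is read against these shares. Fewer cells in a state and less RNA per cell cannot be told apart in such bulk libraries. The labels speak of independent experiments without saying that a number marks one, so p-values measure only the spread between these libraries.

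The 14 largest rises and 14 largest falls among called genes with a mean of at least 50 normalized counts and no overlap of libraries were taken as the leading genes, and nearly all are described by name. Lack of overlap was thus a condition of their choice. The rises ran from a log2 difference of 2.70 to 5.15 and the falls from -2.09 to -1.30. Ldc1 (leucine decarboxylase 1, chr4:130102902-130116194 in GRCm39) was at 0, 8.82 and 0 at 4 h in replicates 4, 5 and 6 and at 34.3, 105 and 117 at 24 h. It rose by 5.15 ± 0.81 (SE; limma adjusted p = 0.000431), a size that depends on the pseudocount, at 5.83 with 0.5 added and 3.53 with 5 added. Grin1 (chr2:25181193-25209199), the obligate subunit of NMDA-type glutamate receptors, was at 2.74, 66.6 and 23.7 and then at 274, 375 and 313, a rise of 4.11 ± 0.76 (adjusted p = 0.00113). The spread of both genes was wide at 4 h, where replicate 5 was the highest. Exons of Grin1 overlap Grin1os and Lrrc26 on the other strand, and since it is not known whether strand was used in counting, their reads cannot be told apart. The same limit holds for 5 of the 14 rises and 8 of the 14 falls.

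The other rises were of varied function. Atp7b, a copper-exporting ATPase, went from 10.1, 24.5 and 5.93 to 173, 194 and 208 normalized counts (log2 3.94 ± 0.381, adjusted p = 3.4e-05). Gipr, the receptor of the gut hormone GIP, went from 62.2, 168 and 78.0 to 748, 1248 and 979.6 (3.36 ± 0.305, adjusted p = 2.66e-05). In both genes the lowest 24 h library was several fold above the highest 4 h library. The potassium channel gene Kcnh2 rose by 2.79 ± 0.283 and Lrrc32, which holds latent TGF-beta at the cell surface, by 3.02 ± 0.29, from 37.5, 102 and 48.4 to 398, 525 and 493. Klhl3, an adaptor of a cullin ubiquitin ligase, rose by 3.68 ± 0.303, Mpp2, a membrane scaffold, by 3.56 ± 0.306, Tox2, an HMG-box factor, by 2.96 ± 0.323 and Dusp8, a MAP kinase phosphatase, by 2.70 ± 0.236. Pgf, a growth factor of the VEGF family, was at 7.31, 35.3 and 18.8 and then at 155, 296 and 205 (3.55 ± 0.439). Nos2 (chr11:78811613-78851080), the inducible nitric oxide synthase, varied widely, at 19.2, 238 and 69.1 at 4 h and 436, 1082 and 716 at 24 h (3.32 ± 0.672, adjusted p = 0.00196). Without 4 h replicate 4 its difference was 2.43, and without 4 h replicate 5 it was 4.21. Selenbp1 and Selenbp2, which bind selenium, rose by 3.08 ± 0.289 and 3.28 ± 0.392, but they are near-identical copies and their shares of the reads are uncertain.

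The largest falls were smaller. Their 4 h means ran from 59.8 (Clec4a2) to 628 (Msr1) normalized counts, and the median mean count over all genes tested was 570. Tnnt2 (chr1:135764092-135779998), a troponin best known from heart muscle, was at 368, 172 and 286 at 4 h and at 43.8, 63.4 and 81.8 at 24 h, a fall of 2.09 on the log2 scale (SE 0.278, adjusted p = 0.000164). Alox15, the arachidonate 15-lipoxygenase of lipid mediator synthesis, went from 64.9, 60.7 and 58.3 to 15.2, 15.0 and 14 (-1.98 ± 0.218, adjusted p = 6.32e-05). Its replicates differed little at either time. The receptor gene Il1rl1, which encodes the receptor of interleukin-33, went from 429.7, 347 and 426 to 111, 129 and 163 (-1.58 ± 0.151). Msr1, the macrophage scavenger receptor, went from 569.6, 674 and 641 to 171, 261 and 326 (-1.36 ± 0.189). Enzymes among the falls were Mboat1, a lysophospholipid acyltransferase (-1.63 ± 0.142), Pld6, a mitochondrial phospholipase (-1.44 ± 0.247), Gpx1, a glutathione peroxidase (-1.42 ± 0.164), and Phex, a membrane peptidase (-1.34 ± 0.171). Further falls were Rgs12, a regulator of G protein signalling (-1.33 ± 0.219), the adhesion receptor Adgre5 (-1.31 ± 0.312), the vitamin transporter Slc5a6 (-1.31 ± 0.153) and Get1, which inserts tail-anchored proteins into membranes (-1.30 ± 0.17). Clec4a2, an inhibitory lectin receptor, fell from 44.8, 75.4 and 59.3 to 9.52, 35.4 and 30.1 (-1.38 ± 0.417, adjusted p = 0.0172). Its call was lost without 4 h replicate 6 (adjusted p = 0.0538), and without 24 h replicate 4 its difference was -0.82.

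**Figure D1:**
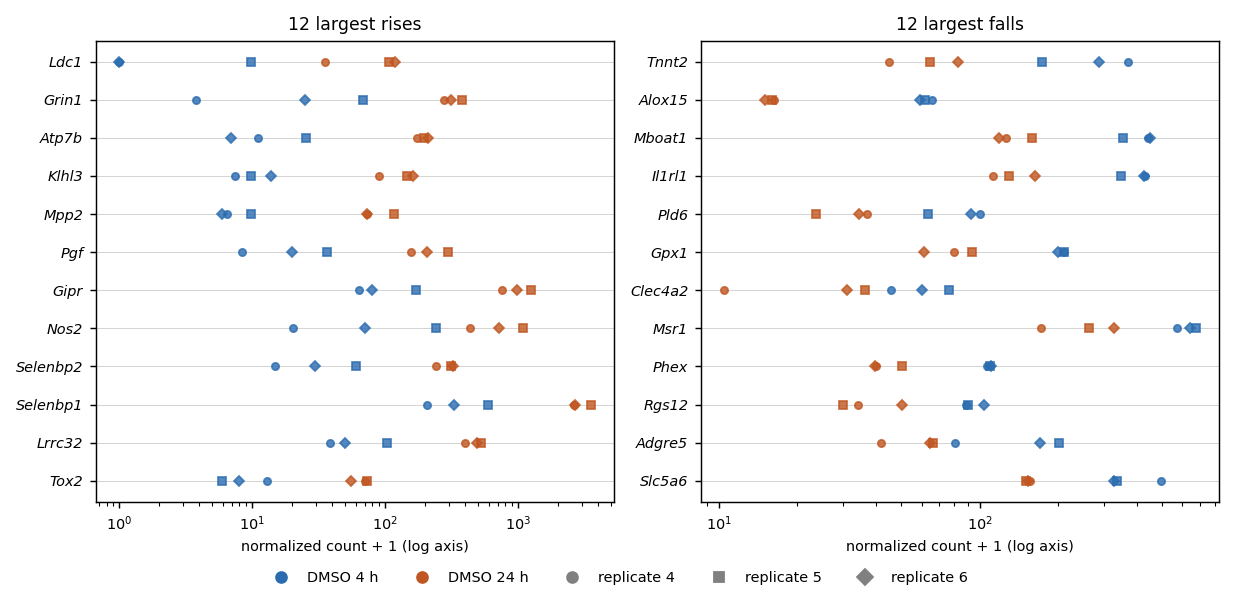
Normalized count plus 1 (log axis) in each of the 6 DMSO libraries for the 12 largest rises (left) and 12 largest falls (right), blue at 4 h and orange at 24 h, with a symbol for each replicate. Genes were chosen among those whose times do not overlap, and the 4 h libraries of Ldc1, Grin1 and Nos2 are widely spread.

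A total of 409 genes in 23 lists were then followed, of which 386 were tested, 136 were higher and 109 were lower. The lists are described by their counts and their median log2 difference, to be set beside a median of 0.0011 over all genes tested.

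**Figure D2:**
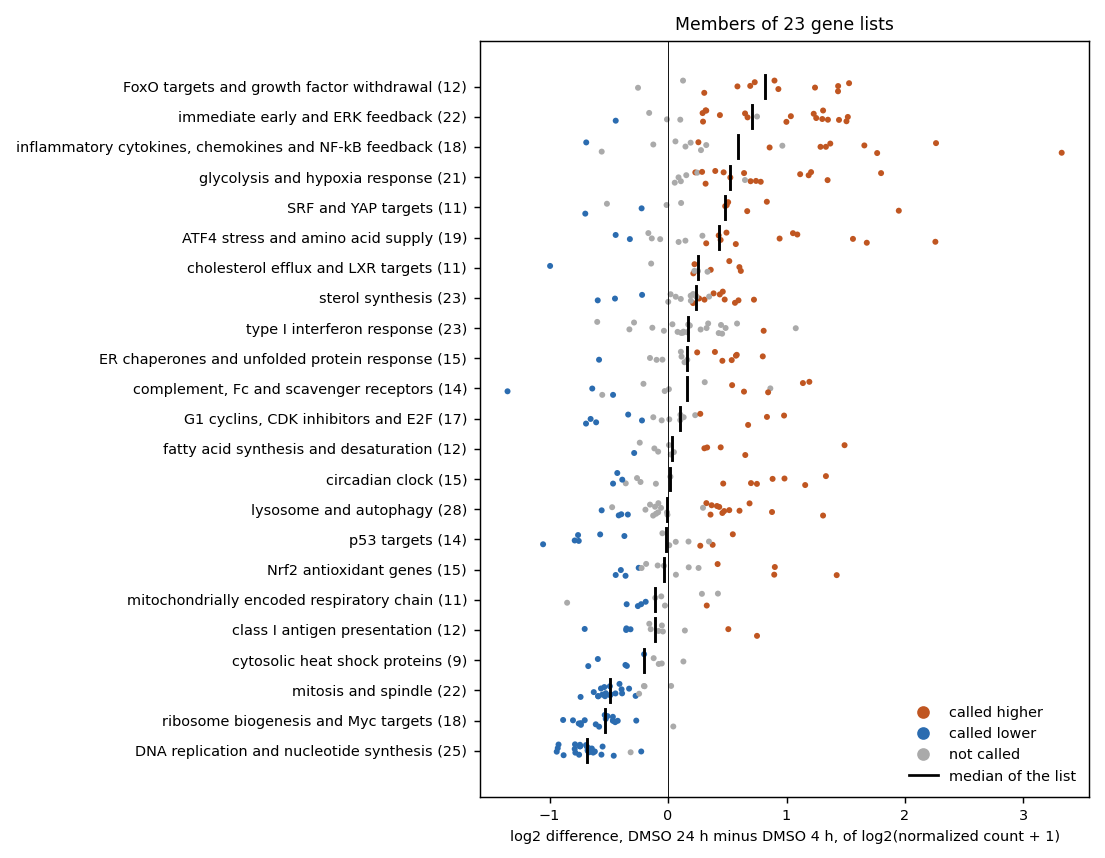
Log2 difference of 24 h over 4 h in DMSO for each tested member of the 23 gene lists, 1 point a gene, coloured by whether it was called, with the list median as a bar. Replication (median -0.69), ribosome biogenesis (-0.53) and mitosis (-0.49) lie below 0 with nearly all members, and FoxO targets (0.81) and immediate early genes (0.71) lie above.

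Genes of DNA replication and nucleotide synthesis were downregulated almost throughout. Of 25 members tested, 24 were lower at 24 h and 0 higher, with a median log2 difference of -0.69, against 25.8% lower among all genes. Mcm6, a subunit of the replicative helicase, was at 5167, 4387 and 4517 at 4 h and at 2738, 2225 and 2422 at 24 h (-0.93 ± 0.0889, adjusted p = 3.26e-05). Mcm5, of the same helicase, went from 5924, 4879 and 5438 to 3201, 2866 and 2736 (-0.88 ± 0.0851). The highest 24 h library lay far below the lowest 4 h library in both genes. The primase Prim1 (-0.94 ± 0.132) and the thymidylate synthase Tyms (-0.92 ± 0.0975) fell most in the list. The ribonucleotide reductase Rrm2 (-0.67 ± 0.0984) and the sliding clamp Pcna (-0.63 ± 0.0804) also fell. The exception was Cdc6, an origin licensing factor, at 891, 638 and 593 and then 524, 571 and 582, with a difference of -0.32 ± 0.134 that missed the threshold (adjusted p = 0.0699). It was called lower with total-read scaling, with DESeq2 and without 4 h replicate 5 or 6 (adjusted p from 0.0333 to 0.0496).

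Mitosis genes were lower as well. Of 22 tested, 18 were lower and 0 higher, with a median of -0.49, against 25.8% lower among all genes. Cdk1, the kinase that drives entry into mitosis, was at 2276, 2143 and 2451 and then at 1650.3, 1389.5 and 1529 (-0.59 ± 0.0806, adjusted p = 0.000191). Cdc20, the activator of the anaphase-promoting complex, went from 3723, 3305 and 3602 to 2549.7, 2170.2 and 2172 (-0.63 ± 0.0799). No 24 h library of either gene reached a 4 h library. The kinesin Kif20a fell most (-0.74 ± 0.0856), and the proliferation marker Mki67 fell from 11248, 11908 and 10779 to 9039, 8213 and 7004 (-0.49 ± 0.0911). The 4 members that were not called were Bub1, Ect2, Cenpe and Ccnb2, at -0.20, -0.20, -0.24 and 0.03.

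Promoters of these genes were read from RefSeq (GRCm38.p6, an older build than that of the counts, from 250 bases before to 50 after the start). They are shown as examples from the 2 lists in which nearly all members fell. Capitals mark the E2F element TTTGGCGC in Mcm5 and Mcm6 and the CHR core TTTGAA and CCAAT box in Cdk1 and Cdc20, each searched on both strands, so that the other strand of CCAAT reads ATTGG and that of the E2F element GCGCCAAA. The windows of Mcm5 and Mcm6 also hold CCAAT boxes, left in lower case, and no element was compared between the lists.
Mcm5 (chr8:75109259-75109558, plus strand): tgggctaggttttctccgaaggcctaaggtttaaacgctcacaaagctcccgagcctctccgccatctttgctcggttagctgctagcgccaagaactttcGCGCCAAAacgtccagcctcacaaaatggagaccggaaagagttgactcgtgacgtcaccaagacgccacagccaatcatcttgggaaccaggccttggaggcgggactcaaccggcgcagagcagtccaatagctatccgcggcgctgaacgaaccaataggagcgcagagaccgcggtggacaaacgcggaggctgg
Mcm6 (chr1:128359656-128359955, minus strand): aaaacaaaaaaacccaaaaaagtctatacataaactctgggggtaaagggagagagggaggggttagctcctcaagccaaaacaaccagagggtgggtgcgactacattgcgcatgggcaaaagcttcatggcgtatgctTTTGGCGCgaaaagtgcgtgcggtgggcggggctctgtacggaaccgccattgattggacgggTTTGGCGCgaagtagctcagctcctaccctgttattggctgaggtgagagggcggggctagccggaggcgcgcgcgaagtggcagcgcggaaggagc
Cdk1 (chr10:69352863-69353162, minus strand): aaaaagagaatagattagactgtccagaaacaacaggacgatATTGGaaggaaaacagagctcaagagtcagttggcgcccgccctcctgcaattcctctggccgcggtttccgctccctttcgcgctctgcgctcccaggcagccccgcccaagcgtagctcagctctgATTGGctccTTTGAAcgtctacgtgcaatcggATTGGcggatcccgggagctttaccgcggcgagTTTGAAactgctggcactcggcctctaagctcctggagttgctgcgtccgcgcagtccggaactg
Cdc20 (chr4:118437294-118437593, minus strand): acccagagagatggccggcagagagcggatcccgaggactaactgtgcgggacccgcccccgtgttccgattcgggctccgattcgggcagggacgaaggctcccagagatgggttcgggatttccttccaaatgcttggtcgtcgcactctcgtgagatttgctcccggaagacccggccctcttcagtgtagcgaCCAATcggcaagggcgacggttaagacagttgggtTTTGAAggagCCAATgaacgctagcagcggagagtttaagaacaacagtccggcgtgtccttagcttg

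In these windows the E2F element began 149 bases before the start in Mcm5, on the other strand, and 110 and 47 bases before it in Mcm6. The CHR core began 71 and 15 bases before the start of Cdk1 and 18 bases before that of Cdc20. Among promoters of the mitosis list, 15 of 20 (75.0%) held TTTGAA, against 17.9% of all 32851 promoters, and 18 of 20 (90%) held CCAAT, against 37.4%. Among those of the replication list, 5 of 25 (20%) held TTTGGCGC, against 0.514% of all promoters, in the genes Cdt1, Mcm3, Mcm5, Mcm6 and Pola1. Over all called genes, TTTGGCGC was in 1.43% of promoters of genes that fell and 0.44% of those that rose, whereas TTTGAA was in 14.5% and 10.3%. These matches describe the letters in the windows and are not evidence of binding.

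Of 17 tested regulators of the passage from G1, 4 were higher and 5 lower (median 0.10), which is near the shares over all genes tested (25.7% and 25.8%). Of the inhibitors of cyclin-dependent kinases, 2 rose, Cdkn1b (p27), at 417, 846 and 721 and then 1027, 1259 and 1119.6 (0.83 ± 0.205, adjusted p = 0.00601), and Cdkn2d (p19), at 266, 423 and 389 and then 661, 777 and 657 (0.98 ± 0.154). The retinoblastoma gene Rb1 rose by 0.68 ± 0.141. All 24 h libraries of the 3 genes were above all 4 h libraries. On the other side, E2f1 (-0.65 ± 0.0807), the cyclin Ccne2 (-0.61 ± 0.117) and the pocket protein Rbl1 (-0.69 ± 0.0948) fell. Cyclin D1 (Ccnd1) was slightly higher, at 9407, 8969.6 and 8027 and then 10423, 9728 and 11759.7 (0.27 ± 0.0864, adjusted p = 0.0218), a call lost without 24 h replicate 6 or without 4 h replicate 6 (adjusted p = 0.101 and 0.109). Cdkn1a (p21) was at 0.01 and was not called. Myc was at too few reads to be tested.

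Ribosome biogenesis genes and targets of Myc fell as a group, with a median of -0.53. Of 18 tested, 17 were lower and 0 higher, against 25.8% lower among all genes. Bop1, a factor of large ribosomal subunit assembly, went from 6456, 5190.2 and 5451 to 3193, 2837 and 3193 (-0.89 ± 0.0878, adjusted p = 3.96e-05). Dkc1, the pseudouridine synthase of ribosomal RNA, fell by 0.80 (SE 0.0906), and the nucleolar protein gene Nolc1 went from 10215, 8363 and 8424 to 5741, 5142 and 5644 (-0.70 ± 0.0863). In these genes the libraries of the 2 times were far apart. The exception was the nucleolar chaperone Npm1, at 0.04, not called.

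FoxO target genes and others known to rise when growth factors are withdrawn were mostly upregulated. Of 12 tested, 10 were higher and 0 lower, with a median of 0.81, against 25.7% higher among all genes. Klf2, a factor of quiescence in blood and endothelial cells, was at 133, 252 and 237 and then at 470.2, 639 and 643 (1.53 ± 0.216, adjusted p = 0.000229). Ccng2, an atypical cyclin of cell cycle arrest, went from 499, 1289 and 997 to 2072, 2595 and 2364 (1.43 ± 0.261). Bnip3, a mitophagy receptor, went from 1258, 2134 and 1759 to 4242, 4709.8 and 4684 (1.44 ± 0.149). The times did not overlap in the 3 genes, and at 4 h replicate 5 was the highest, as in 10 of the 12 members and in 61.0% of all genes called higher. Without this library 10 members were again higher and 0 lower, with a median of 0.91. Gadd45a, a stress gene that slows the cycle, rose by 1.24 ± 0.257 and Txnip, an inhibitor of thioredoxin and glucose uptake, by 0.69 ± 0.0889. The sestrins Sesn1 and Sesn3 were at -0.25 and 0.13 and were not called.

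Immediate early genes and feedback inhibitors of ERK signalling were higher in 17 of 22 and lower in 1. Their median was 0.71, and among all genes 25.7% were higher. Atf3, a stress-induced factor, was at 741, 1367 and 1078 and then at 2667, 3257 and 2958 (1.52 ± 0.174, adjusted p = 7.92e-05). All 5 MAP kinase phosphatases of the list rose. Dusp5 went from 221, 339 and 269 to 745, 753 and 829 (1.51 ± 0.136), Dusp1 from 124, 230.2 and 166 to 392, 517 and 477 (1.44 ± 0.194) and Dusp4 from 3207, 3662 and 3466 to 6849.6, 7388 and 6948 (1.04 ± 0.0688). None of these 3 had overlapping libraries, and Atf3 had none either. Ier3, a survival gene of the NF-kB and ERK pathways, rose by 1.30 ± 0.19 and the AP-1 member Fosl2 by 1.23 ± 0.153. Fos itself went the other way, from 394, 505 and 469 to 279.8, 378 and 351 (-0.44 ± 0.131, adjusted p = 0.0159), and lost its call without 24 h replicate 4 or without 4 h replicate 6 (adjusted p = 0.0551 and 0.0601).

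Glycolysis genes and targets of hypoxia-inducible factor were higher in 15 of 21 and lower in 0, against 25.7% higher among all genes. Their median was 0.53. Ndrg1, a hypoxia-inducible gene, was at 7438, 16996 and 11673 and then at 35244, 45431 and 38777 (1.80 ± 0.228, adjusted p = 0.000126). Vegfa, the angiogenic growth factor, went from 1909, 3144 and 2453 to 5275, 7038 and 6529 (1.35 ± 0.157). The glucose transporter Slc2a1 went from 6041, 8952 and 7637 to 14920.3, 17249 and 16313 (1.12 ± 0.122). The 24 h values stood above all 4 h values in the 3 genes, and 4 h replicate 5 was the highest 4 h library in 17 of the 21 members. Without that library 18 members were higher and 0 lower, with a median of 0.59. Of the enzymes, the phosphofructokinase Pfkp (1.21 ± 0.0866), the hexokinase Hk1 (1.19 ± 0.101) and the phosphoglycerate kinase Pgk1 (0.78 ± 0.122) rose. Lactate dehydrogenase A (Ldha), at 51075, 58972 and 54846 and then 58180.5, 59502 and 57341, differed by 0.088 ± 0.0856 and was not called (adjusted p = 0.411).

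**Figure D3:**
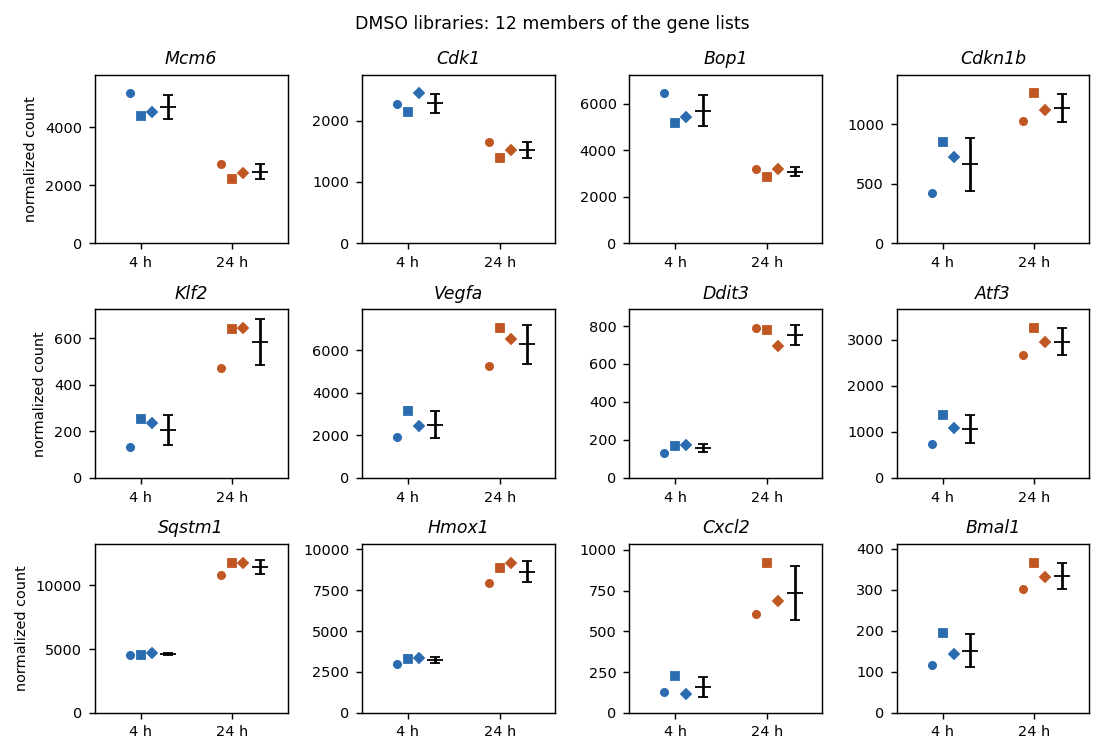
Normalized counts in each of the 6 DMSO libraries for 12 genes (points, blue at 4 h and orange at 24 h), with the mean and SD of 3 libraries as a bar beside them. Mcm6, Cdk1 and Bop1 are lower in every 24 h library and the other 9 genes are higher in every 24 h library.

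The ATF4 response, which supplies amino acids under stress, was higher in 11 of 19 members and lower in 2 (median 0.43). Over all genes 25.7% were higher and 25.8% lower. The strongest members were stress effectors. Ddit3 (CHOP; chr10:127126643-127132157), a factor of the stress response linked to cell death, went from 133, 168 and 171 to 789, 779.6 and 692 (2.26 ± 0.117, adjusted p = 1.26e-06). Trib3, a pseudokinase downstream of CHOP, went from 349, 380.1 and 463 to 1227, 1514 and 1089 (1.68 ± 0.131), and Chac1, which degrades glutathione, from 101, 125 and 148 to 385, 398 and 318 (1.56 ± 0.154). No 24 h library of these 3 genes came near a 4 h library. The mitochondrial enzyme Pck2 rose by 1.09 ± 0.122, the mTORC1 inhibitor Ddit4 by 1.05 ± 0.24 and Atf4 itself by 0.43 ± 0.0829. Enzymes of serine and folate metabolism did not rise. Shmt2 fell from 8407, 6812 and 7231 to 6136, 5441 and 4943 (-0.44 ± 0.096), and Phgdh and Psat1, at -0.14 and -0.07, were not called. The composite C/EBP-ATF element TTGCATCA was found in 3 of 22 promoters of the list (13.6%; Chac1, Nupr1 and Vldlr) against 0.895% of all promoters. It is shown in capitals in the RefSeq promoter of Chac1, where it begins 193 bases before the start.
Chac1 (chr2:119350992-119351291, GRCm38.p6, plus strand): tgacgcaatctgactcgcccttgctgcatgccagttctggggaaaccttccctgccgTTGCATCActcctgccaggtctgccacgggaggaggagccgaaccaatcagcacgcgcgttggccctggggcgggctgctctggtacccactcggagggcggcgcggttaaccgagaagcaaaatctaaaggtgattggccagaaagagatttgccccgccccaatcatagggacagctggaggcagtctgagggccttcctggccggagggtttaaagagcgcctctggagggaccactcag

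Endoplasmic reticulum chaperones and unfolded protein response genes were called in 53.3%, near the 51.6% of all genes tested. Of these 15 endoplasmic reticulum genes, 7 were higher and 1 lower (median 0.16), against 25.7% higher and 25.8% lower among all genes. Herpud1, of the degradation machinery of this compartment, went from 1309, 1230.4 and 1476 to 2193, 2425 and 2359.7 (0.80 ± 0.0797), and the chaperone Hspa5 (BiP) from 16307, 14332 and 15199 to 21972, 22238 and 24282 (0.58 ± 0.0764). The lectin chaperone calreticulin (Calr) fell, from 17957, 13575 and 15374 to 9850.5, 10382 and 10910.3 (-0.58 ± 0.0964). All 3 genes had separate groups of libraries. Cytosolic and mitochondrial heat shock proteins were lower in 5 of 9 and higher in 0 (median -0.20), led by Hsph1 (-0.67 ± 0.082) and the mitochondrial chaperonin Hspd1 (-0.59 ± 0.0937). The 55.6% called was near the 51.6% over all genes tested, but all calls were lower, against 25.8% lower among all genes.

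Nrf2 is an antioxidant factor. In microglia the study saw it move to the nucleus with dimethyl fumarate but not with monomethyl fumarate. Of 15 tested targets of Nrf2, 4 were higher and 4 lower (median -0.03), shares close to the 25.7% and 25.8% over all genes tested. Hmox1, heme oxygenase 1, rose from 3004, 3291 and 3359 to 7911, 8845 and 9165 (1.42 ± 0.0749, adjusted p = 1.27e-06). The cystine transporter Slc7a11 (0.90 ± 0.0784) and Osgin1 (0.90 ± 0.116), an oxidative stress response gene, rose as well, and the times did not overlap in these 3 genes. Peroxiredoxin 1 (Prdx1) fell from 9843, 9245 and 9397 to 6720.2, 7489 and 6777 (-0.44 ± 0.0674), and the glutamate-cysteine ligase genes Gclc and Gclm, at -0.09 and 0.07, were not called. Nqo1 was below the filter.

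Genes of sterol synthesis and its control were higher in 11 of 23 and lower in 3, with a median of 0.23. The 60.9% called stood beside 51.6% of all genes tested (25.7% higher, 25.8% lower). The mevalonate enzymes Pmvk and Mvd rose by 0.73 ± 0.0895 and 0.56 ± 0.123, lanosterol synthase (Lss) by 0.59 ± 0.0902 and squalene synthase (Fdft1) by 0.48 ± 0.0923. Insig1, the sterol sensor that holds SREBP2 back, went from 2580.1, 3039.8 and 2422 to 3507, 3931 and 3601 (0.46 ± 0.0873), and Srebf2, which encodes SREBP2, rose by 0.26 ± 0.0644. All 24 h libraries of Insig1 were above all 4 h libraries. Ebp fell by 0.45 (SE 0.133, adjusted p = 0.016), a call lost without 24 h replicate 6 or without 4 h replicate 4 (adjusted p = 0.0715 and 0.0603). The sterol element TCACNCCAC was found in 1 of 19 promoters of the list (5.26%, Hmgcs1) and in 1.24% of all promoters.

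Among genes of fatty acid synthesis, 5 of 12 were higher and 1 lower (median 0.04). The 50% called was near the 51.6% of all genes tested (25.7% higher, 25.8% lower). Acss2, which makes acetyl-CoA from acetate, rose from 155, 304 and 165 to 467, 692 and 536 (1.49 ± 0.23) and the desaturase Scd1 from 5884, 6593 and 5635 to 9280.4, 9486 and 9633 (0.65 ± 0.0712), each without overlap. Fasn, the fatty acid synthase, was at -0.24 and was not called. Elovl6, an elongase, fell by 0.29 (SE 0.0791), a call lost without 24 h replicate 5 (adjusted p = 0.0517). In cholesterol efflux, 6 of 11 were higher and 1 lower (median 0.25), against 25.7% higher and 25.8% lower among all genes. The lysosomal cholesterol transporter Npc1 rose by 0.61 ± 0.0745. The receptor gene Nr1h3 (LXR alpha) fell from 112, 146 and 131 to 52.3, 73.0 and 68.9 (-0.996 ± 0.178, adjusted p = 0.000927), while the exporter Abca1, its target, went from 1274, 1965 and 1499 to 1805, 2488 and 2924 (0.60 ± 0.176). The libraries of Abca1 overlapped, and its call was lost without 24 h replicate 5 or 6, or without 4 h replicate 4 or 6 (adjusted p from 0.0518 to 0.0701).

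Lysosome and autophagy genes were higher in 12 of 28 and lower in 4, with a median of -0.01. The 57.1% called was near the 51.6% of all genes tested, where 25.7% were higher and 25.8% lower. Sqstm1 (p62; chr11:50090193-50101654), the autophagy cargo receptor, went from 4574, 4552 and 4729 to 10812, 11762 and 11768 (1.31 ± 0.0634, adjusted p = 1.08e-06). The factor Tfeb, which controls lysosome genes, rose from 114, 173 and 148 to 234, 368 and 213 (0.88 ± 0.209). The times were apart in both, and far apart in Sqstm1. Atp6v0d1, of the proton pump, rose by 0.69 ± 0.0638, the autophagosome protein gene Map1lc3b by 0.60 ± 0.0736 and progranulin (Grn) by 0.46 ± 0.0777. Cathepsins S and Z fell, Ctss by 0.56 (SE 0.0845) and Ctsz by 0.39 (SE 0.0775), whereas Ctsb, Ctsd and Ctsl, at -0.08, -0.15 and -0.06, were not called. Without 4 h replicate 5, 8 members were lower in place of 4. The CLEAR element TCACGTGA was found in 5 of 28 promoters (17.9%) against 0.974% of all promoters, and in 1.73% of those of genes that rose and 1.74% of those that fell.

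Inflammatory genes were in part upregulated without LPS. Of 18 cytokine, chemokine and NF-kB feedback genes tested, 9 were higher and 1 lower, with a median of 0.59. The 55.6% called was near the 51.6% of all genes tested, where 25.7% were higher and 25.8% lower. Some genes of this list were named by the study from these libraries, so the list is not independent evidence of its direction. Cxcl2, a chemokine for neutrophils, was at 128, 227 and 117 and then at 603, 919 and 686 (2.26 ± 0.229, adjusted p = 4.37e-05). Ccl4, a chemokine for monocytes, went from 262, 228 and 241 to 869.9, 722 and 911 (1.77 ± 0.107) and Ccl3, its neighbour on chromosome 11, from 634, 409 and 439 to 1671, 1470.0 and 1462 (1.66 ± 0.141). The 24 h libraries of the 3 chemokines were all well above the highest 4 h library. Nfkbiz, a nuclear modulator of NF-kB, rose by 1.37 ± 0.103, Ccl5 by 1.33 ± 0.284 and Ptgs2 (cyclooxygenase 2) from 2538, 3952 and 2981 to 5899, 8442 and 8725 (1.29 ± 0.167). Tnf was only slightly higher, at 1305, 1245 and 1094 and then 1368, 1543 and 1435 (0.26 ± 0.0826, adjusted p = 0.0234), and lost its call without 24 h replicate 5 or 6 or without 4 h replicate 6 (adjusted p from 0.0584 to 0.113). Il1b, at 0.96, and Ccl2, at 0.19, were not called, and Il6 was below the filter. Cd69, an activation receptor, fell by 0.69 (SE 0.233, adjusted p = 0.0285), a call lost with no filter on low values, with DESeq2, without 24 h replicate 5 and without 4 h replicate 5 or 6 (adjusted p from 0.0576 to 0.109).

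Of 14 complement, Fc and scavenger receptors, 5 were higher and 3 lower (median 0.16), and the 57.1% called was near the 51.6% of all genes tested. Activating Fc receptor Fcgr4 rose from 85, 183 and 106 to 201, 287 and 347 (1.19 ± 0.265) and the anaphylatoxin receptor C5ar1 from 146, 264 and 197 to 305, 536 and 499 (1.14 ± 0.233). The high-affinity Fc receptor Fcgr1 fell from 480.0, 469 and 414 to 268, 363 and 252 (-0.64 ± 0.136). In these 3 genes the times did not overlap. The LPS co-receptor Cd14 fell from 12606, 10514 and 11147 to 7242, 8411 and 9234 (-0.46 ± 0.0972), beside the scavenger receptor Msr1 above. Of the 10 macrophage markers, 3 rose and 2 fell. Aif1, which encodes the marker Iba1, rose by 1.14 ± 0.275 and the lysosomal glycoprotein gene Cd68 by 0.25 ± 0.0716. The factor Irf8 rose from 563, 591 and 652 to 1029, 1150.1 and 1187 (0.90 ± 0.086), and the signalling pair Trem2 and Tyrobp fell, by 0.62 (SE 0.164) and 0.52 (SE 0.0999).

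For type I interferon genes the result depended on which 4 h libraries were used. Of 23 tested, 1 was higher and 0 lower, with a median of 0.17 and no gene whose times did not overlap. Irf7, the factor that amplifies the response, was at 474, 2418 and 803 at 4 h and at 1480.0, 2145 and 2730.0 at 24 h (1.08 ± 0.451, adjusted p = 0.0663). Ifit1, an antiviral effector, was at 188, 679 and 414 and then at 201, 332 and 228 (-0.60 ± 0.362, adjusted p = 0.189). Replicate 5 was the highest of the 4 h libraries in 23 of 23 members, and among all genes tested in 35.4%. Summed over the list, normalized counts were 9698, 24599.9 and 13707 at 4 h and 16100.5, 20219.9 and 20723 at 24 h. Without 4 h replicate 5, 17 of 23 members were higher and the median was 0.55, and without 4 h replicate 4, 0 were higher, 1 was lower and the median was -0.14. The member called higher, Oas3, an antiviral synthetase at 787, 2263 and 1208 and then 2072, 2450.4 and 2272 (0.81 ± 0.277, adjusted p = 0.0309), lost its call with edgeR, with DESeq2, without 24 h replicate 5 or 6 and without 4 h replicate 4 or 6 (adjusted p from 0.0572 to 0.193). The same ordering was present in EtOH, where the 4 h sums were 12071, 30477 and 16031 for replicates 4, 5 and 6. The interferon element GAAANNGAA was found in 10 of 17 promoters of the list (58.8%) against 8.56% of all promoters.

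**Figure D4:**
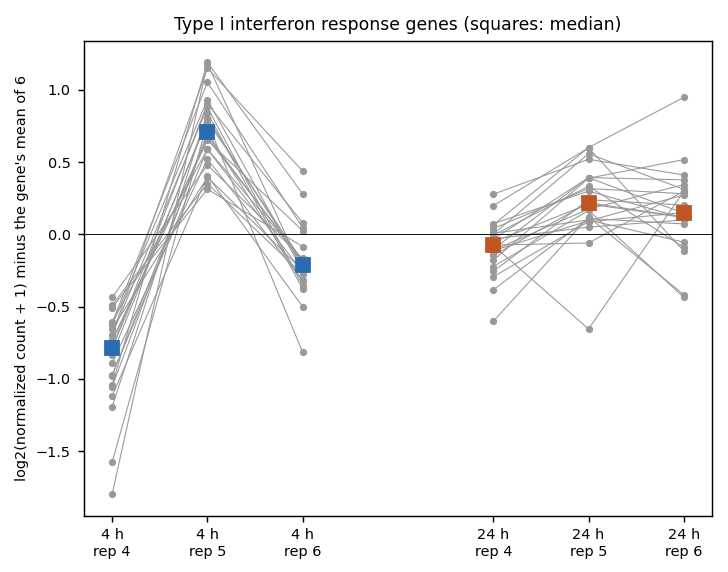
Deviation of log2(normalized count + 1) from the gene's mean over the 6 DMSO libraries, for each of 23 interferon genes (grey lines) and their median (squares). The median is -0.79, 0.71 and -0.21 for 4 h replicates 4, 5 and 6 and -0.074, 0.22 and 0.15 for 24 h replicates 4, 5 and 6.

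Clock genes were higher in 7 of 15 and lower in 3 (median 0.02), against 25.7% higher and 25.8% lower among all genes. Bmal1, the positive arm of the clock, rose from 116, 195 and 143 to 302, 365 and 330.5 (1.16 ± 0.172, adjusted p = 0.00031). Bhlhe40, a repressor that also responds to stress and hypoxia, rose from 965, 1857 and 1435 to 3189, 3923 and 3291 (1.33 ± 0.185) and Dbp, an output gene, from 143, 158 and 158 to 237, 338 and 346 (0.98 ± 0.15). The times did not overlap in the 3 genes. Per3, Per1 and Ciart, of the negative arm, rose by 0.88 ± 0.217, 0.47 ± 0.0914 and 0.75 ± 0.112, whereas Nr1d2 (-0.43 ± 0.0944), Tef (-0.46 ± 0.0866) and Cry2 (-0.39 ± 0.118) fell. The call of Cry2 was lost without 24 h replicate 5 or 6 and without 4 h replicate 4 or 6 (adjusted p from 0.0506 to 0.0743). With only 2 times, no phase can be read. The E-box CACGTG, which is also the middle of TCACGTGA, was found in 6 of 17 clock promoters (35.3%) against 7.15% of all promoters. It was in 9.05% of promoters of genes that rose and 12.7% of those that fell.

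The same times were compared in the other vehicle, EtOH, to see which changes were shared. With EtOH, 6901 of 11775 genes (58.6%) were called in their own table, 29.1% higher and 29.5% lower. Of 5918 genes called with DMSO and tested with EtOH, 5881 had the same sign and 5299 were also called in the same direction, which is 89.5% of the DMSO calls and 76.8% of the EtOH calls. A single gene was called in opposite directions. All 14 rises and all 14 falls described above had the same sign and were called, at 2.29 to 5.79 and -2.09 to -0.83. Across 11446 genes, which are not independent replicates, Spearman's rho of the 2 sets of differences was 0.907. The difference of the time effects was tested as an interaction over 12 libraries, and 0 of 11931 genes (0%) were called by limma or by edgeR, and 15 by DESeq2. At an unadjusted p below 0.05 there were 877 genes (7.35%), and the smallest adjusted p was 0.51. The 95% confidence interval of a gene's difference had a median half-width of 0.31 on the log2 scale, not adjusted for the number of genes. Larger differences were not called either, as for Selenbp1 at -1.17 (interval -2.37 to 0.03, adjusted p = 0.681). Without 4 h replicate 4 of DMSO, 6 genes were called. No member of the 23 lists was called. The test took the 12 libraries as independent, although both vehicles carry numbers 4 to 6 and shared the order of interferon sums at 4 h. Whether they came from the same experiments is not stated, and no fit paired the vehicles. The 2 sets of differences may thus not be independent.

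The groups with LPS and no drug were compared in the same way, to ask which changes over time differed under activation. With LPS, 5633 of 11510 genes (48.9%) were called between 24 h and 4 h, 24.7% higher and 24.3% lower. Of 5867 DMSO calls tested with LPS, 3712 were called in the same direction (63.3% of the DMSO calls, 65.9% of the LPS calls) and 109 in the opposite direction, and Spearman's rho across 11295 genes was 0.720. The interaction was called for 1109 of 11847 genes (9.36%), of which 519 (4.38%) moved more upward with DMSO and 590 (4.98%) more downward. Scaled to total reads, 1187 were called, of which 391 moved more upward with DMSO. Leaving out 1 library gave 617 to 1248 calls, with 617 without 24 h replicate 6 of DMSO, 657 without 4 h replicate 6 of DMSO and 734 without 4 h replicate 3 of LPS.

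Of the inflammatory list, 9 of 20 members were called by interaction, all 9 more positive with DMSO. The filter over both treatments took in 20 members, against 18 over the DMSO libraries alone. Cd83, 1 of the 9, had DMSO means of only 5.28 and 12.9, against 36.1 with LPS at 4 h. Its difference rests on low counts. Cxcl2 went from a mean of 163 to 771 with DMSO and from 8032 to 5623 with LPS, a difference of time effects of 2.81 (95% confidence interval 2.10 to 3.53, adjusted p = 0.000375). Ccl4 went from 253 to 873 with DMSO and from 2128 to 1367 with LPS (2.41, interval 2.06 to 2.77), and Ccl3 from 513 to 1606 and from 3951 to 2435 (2.36, interval 1.87 to 2.86). In these chemokines the level with LPS at 24 h was still above the level with DMSO at 24 h. In the ATF4 list 3 of 19 were called, in the lysosome and autophagy list 7 of 28 and in the endoplasmic reticulum list 4 of 15, all more positive with DMSO except Ctss (-0.42). Over all genes tested 9.36% were called. The median differences of these 3 lists were 0.01, -0.0001 and 0.23, so the first 2 did not shift as a whole. In other lists the calls went the other way. Of G1 regulators 4 of 17 and of complement, Fc and scavenger receptors 3 of 14 were called, all more negative with DMSO. Ddit3 went from 164 to 789 with DMSO and from 209.7 to 339 with LPS (1.58, interval 1.21 to 1.94), Sqstm1 from 4792 to 11982 and from 10477 to 8609 (1.60 with an SE of 0.0964) and Herpud1 from 1389 to 2434 and from 2967 to 1683 (1.62, interval 1.33 to 1.92). Atf3 (1.48) and Ier3 (1.48) likewise rose with DMSO from levels below those with LPS at 4 h.

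The lists of cell division were lower at 24 h with LPS too. With LPS 18 of 25 replication genes (median -0.43) and 14 of 22 mitosis genes (median -0.34) were lower at 24 h and 0 of either list were higher. By interaction 1 member of each list was called, Tk1, a thymidine kinase (-0.67), and Bub1b, a spindle checkpoint kinase (-0.41). Ribosome biogenesis genes were lower in 16 of 18 with LPS and in 17 of 18 with DMSO, and 0 were called by interaction. FoxO targets were higher in 11 of 12 with LPS, and the 3 called by interaction, Insr, Sesn1 and Sesn3, were more positive with LPS. Glycolysis and hypoxia genes were higher in 7 of 21 with LPS against 15 of 21 with DMSO, but 0 were called by interaction, so a difference was not shown. Interferon genes with LPS were lower at 24 h in 11 of 23 and higher in 2, and Rsad2 and Ifit1 were called by interaction (1.89 and 1.83). Here too 1 library at 4 h stood out. Sums over the list with LPS were 32654, 59922 and 39594 at 4 h for replicates 1, 2 and 3, and 35228, 43493 and 36769 at 24 h.

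**Figure D5:**
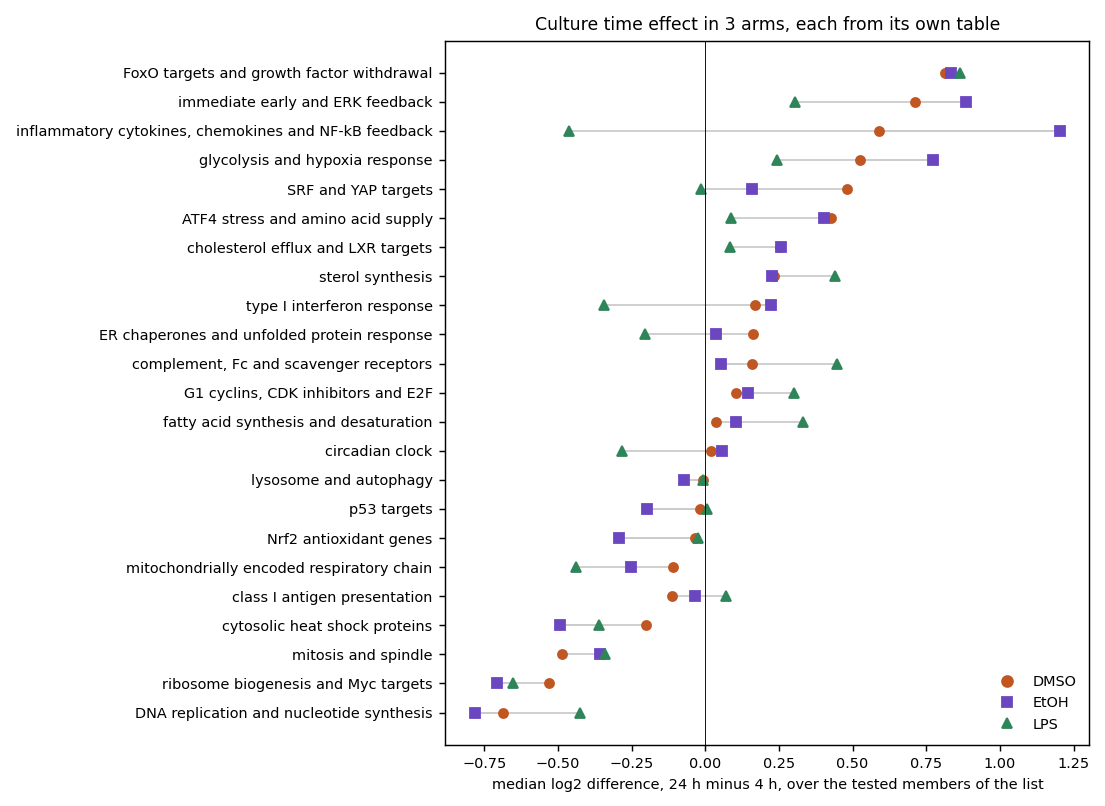
Median log2 difference of 24 h over 4 h for each of the 23 gene lists with DMSO (circles), EtOH (squares) and LPS (triangles), each over the members tested in its own table. The inflammatory list spreads most, at 0.59, 1.20 and -0.46, whereas FoxO targets lie together at 0.81, 0.83 and 0.86. The inflammatory medians cover 18, 19 and 20 members. In the interaction fit the median DMSO minus EtOH difference was 0.095 for this list and -0.17 for FoxO targets.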

How the data were processed

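Polyadenylated RNA was sequenced in 36 libraries of BV-2 cells, of which 6 (DMSO, 24 h and 4 h) were described and 12 (EtOH and LPS) were compared. Per the labels and the methods of the study, the authors used Cutadapt 4.4 and Trimmomatic 0.39 to trim the paired reads, HISAT2 2.2.1 to map them to GRCm39 and HTSeq 2.0.3 to count them for Ensembl genes, with no strand setting stated. They deposited 30 tables, 1 for each pair of groups, of which 3 were used. Each holds a signal per library, the read count divided by a DESeq2 1.40.2 size factor, beside fold changes and p-values of the authors, which were not used. Whole reads were recovered from all values of the 18 library columns (100% within 0.01 of a whole number).

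Here R 4.3.3 and limma 3.58.1 (lmFit, eBayes with an intensity trend) were run on log2 of the deposited signal plus 1, for genes at 10 or more in at least 3 libraries, with Benjamini-Hochberg adjustment and a threshold of 0.05. Differences between time effects were interaction terms over 12 libraries, on recovered reads scaled by median-of-ratios factors over those libraries, since tables were scaled separately. The script was tested on simulated counts. Alternatives were pseudocounts of 0.5 and 5, no filter, TMM and total-read scaling, edgeR 4.0.16 and DESeq2 1.42.0 on recovered reads, a replicate block, a log2 limit of 1 and leaving out each library. Genes named were the 14 largest rises and falls and, for each interaction, the 3 largest differences each way, among called genes with a mean of at least 50 in the higher group, DMSO times that did not overlap and an assigned gene symbol, and members of 23 lists. Under this rule 5463 genes were eligible, and 2 genes without an assigned symbol fell by more than the smallest of the 14 falls. Some genes that the rule or a list takes in are counted but not reported here. The members of the lists, the tests and the promoter elements were chosen with earlier results of these data known. Of 17232 genes listed, 17212 were found in a GRCm39 annotation (GENCODE), all at an overlapping position. No 2 replicates were copies, with a chi-square per degree of freedom of 5.27 to 18.4. Intervals cover the spread between libraries, and the number of libraries, 3 a group, limits the precision.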

Additional observations from a re-analysis of the deposited data

Results flagged for a closer look

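The change over time differed between DMSO and LPS, by the interaction test of limma, for 1109 genes. The genes with the largest differences under the naming rule are given with means over 3 libraries under joint scaling. Each difference is the log2 change with DMSO minus that with LPS.

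Mpp2 went from 6.66 to 90.6 with DMSO and from 27.5 to 16.6 with LPS, a difference of 4.22 (95% confidence interval 3.22 to 5.22, adjusted p = 0.000239). Ldc1 went from 3.05 to 89.7 with DMSO and from 1.66 to 2.09 with LPS, a difference of 4.82 (interval 2.28 to 7.36, adjusted p = 0.0213) that was not called by edgeR or DESeq2 (adjusted p = 0.177 and 0.117), without 4 h replicate 6 of DMSO (0.0583) or without 4 h replicate 3 of LPS (0.0502). Mmp10, a matrix metalloproteinase, went from 52.7 to 6.54 with LPS and passed the filter only through LPS at 4 h. With DMSO it was at 0.949, 0 and 0 and then 2.98, 2.25 and 5.64, all below 10 normalized counts, so that no change with DMSO can be read. Its fitted difference of 4.65 (interval 3.26 to 6.04, adjusted p = 0.00103) rests on these low counts and ranged from 2.98 with a pseudocount of 5 to 5.37 with one of 0.5.

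Msr1 went from 652 to 265 with DMSO and from 1554 to 2188 with LPS, a difference of -1.81 (interval -2.47 to -1.15, adjusted p = 0.00337). Pim2, a survival kinase, went from 89.4 to 115 with DMSO and from 103 to 481 with LPS, a difference of -1.90 (interval -2.67 to -1.12, adjusted p = 0.00606). Crybg2 went from 31.6 to 59.5 with DMSO and from 28.5 to 193 with LPS, a difference of -1.79 (interval -2.60 to -0.97, adjusted p = 0.011).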

How the results depend on the processing

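The count of 5922 genes called between 24 h and 4 h with DMSO was 5489 to 5931 with other pseudocounts, scaling, tools or no filter, 4703 to 6077 when 1 library was left out and 710 with a log2 limit of 1. The interaction with EtOH called 0 genes, 15 with DESeq2 and 0 to 6 when 1 library was left out, 6 of them without 4 h replicate 4 of DMSO. The interaction with LPS called 1109 genes, 238 with a log2 limit of 1 and 617 to 1248 when 1 library was left out, with the lowest counts without 24 h replicate 6 of DMSO (617), 4 h replicate 6 of DMSO (657) and 4 h replicate 3 of LPS (734). Total-read scaling gave 32.9% of the LPS interaction calls as more positive with DMSO, against 46.8% in the reported fit.

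Replicate numbers 4, 5 and 6 did not meet the criterion for pairing the 2 times (correlations of deviations 0.362, 0.376 and 0.0079 over 9972 genes, threshold 0.1), and 24 h replicate 6 did not correlate best with its own number. With the replicate block, 6483 genes were called with DMSO, 0 for the EtOH interaction and 1701 for the LPS interaction. In the interactions the block was set within DMSO, EtOH or LPS and did not pair DMSO with EtOH. The block called 6 interferon genes higher and 1 lower, against 1 and 0, among them Irf7 (adjusted p = 0.00367) and Ifit1 (0.00995), and it also called Cdc6 (0.0375).

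For the 147 named genes, 2004 of 2052 values under alternatives kept direction and side of the threshold, 39 lost the call, 9 gained it and 0 changed sign while called. Of the counts of list members, 591 of 644 stayed within 1.5 times. With 14.1 M to 16.4 M reads a library, genes below 10 normalized counts, such as Myc and Il6, could not be compared.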

Other observations

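SRF and YAP target genes were higher at 24 h with DMSO in 6 of 11 and lower in 2 (median log2 difference 0.48). The shares over all genes tested were 25.7% higher and 25.8% lower. Amotl2, a YAP target, was at 5.49, 13.7 and 2.96 at 4 h and at 18.1, 45.1 and 23.7 at 24 h (1.95 ± 0.505, limma adjusted p = 0.00799). The cytoskeletal genes Zyx (0.83 ± 0.179) and Actg1, at 2985, 3600.2 and 3045 and then 4387, 5315 and 5631 (0.67 ± 0.101), rose, while Tagln2, at 5784, 6787 and 6754 and then 4093, 3942 and 3841 (-0.70 ± 0.0746), and Srf itself (-0.22 ± 0.0606) fell. Targets of p53 were lower in 6 of 14 and higher in 3 (median -0.02), against 25.8% lower and 25.7% higher among all genes. The nuclease gene Aen fell from 2277, 1697 and 1858 to 938, 804 and 1058 (-1.05 ± 0.12), Ei24 by 0.79 (SE 0.0726) and the cyclin Ccng1 by 0.76 (SE 0.0929), whereas the death gene Bbc3 (0.55 ± 0.113) and the p53 ligase Mdm2 (0.27 ± 0.0707) rose.

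Genes of class I antigen presentation were higher in 2 of 12 and lower in 4 (median -0.11), and the 50% called was near the 51.6% of all genes tested. The immunoproteasome subunit Psmb10 fell from 1030.4, 944 and 867 to 543, 593 and 605 (-0.70 ± 0.0866), and the class I activator Nlrc5 rose from 1206, 1324 and 1319 to 1877, 1973 and 1641 (0.51 ± 0.0816). Transcripts encoded in mitochondria were lower in 4 of 11 and higher in 1 (median -0.11), with 45.5% called against 51.6% of all genes tested. The complex I gene mt-Nd1 fell from 39609, 35452 and 40032 to 31740.3, 28778 and 29751 (-0.35 ± 0.0816, adjusted p = 0.00452). The calls of mt-Cytb (-0.23 ± 0.0811) and mt-Co1 (0.33 ± 0.113) were lost with no filter on low values and without 24 h replicate 5 or 6 or 4 h replicate 6, and that of mt-Co1 also without 4 h replicate 4.

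In 61.0% of the genes called higher at 24 h, replicate 5 was the highest of the 4 h libraries, and in 70.3% of those called lower replicate 4 was, against 35.4% and 39.5% of all genes tested. Genes that rose by more than 1 on the log2 scale had a median mean count of 120 and a median GC content of 52.7%, against 570.1 and 49.5% over all genes tested. Genes that fell by more than 1 had a still lower median mean count, 42.4, and a median GC content of 49.6%.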
